A study of Oncorhynchus mykiss with 15 samples.

Results

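Visceral and subcutaneous fat of adult rainbow trout (Oncorhynchus mykiss) were compared through the RNA of their mature adipocytes, the cells in which fat is stored. The comparison used the 5 libraries of visceral adipose tissue (VAT, replicates 1 to 5) and the 5 of subcutaneous adipose tissue (SAT, replicates 1 to 5), chosen by their titles, 10 of the 15 libraries of the series. The other 5, from intramuscular adipose tissue (IMAT), entered the fit and are given as a reference level. All fish were untreated controls kept in fresh water at 15 °C on a commercial diet and fasted for 24 h. Cells of all groups were freed with collagenase type II. The labels name no strain, sex or age in years, and they tie no library to a fish. The p-values therefore measure only the spread between libraries, which for genes was estimated over all 15, IMAT included.

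Visceral fat lies around the gut and other organs of the body cavity, and subcutaneous fat lies beneath the skin. A mature adipocyte takes up or makes fatty acids, stores them as triacylglycerol in a lipid droplet and releases them again when the fish needs fuel. Adipocytes of different depots arise at different sites, and in vertebrates they are known to differ in developmental regulators, matrix and metabolic genes. The count table gives Ensembl identifiers without names, and the gene table at hand pairs none of them with a symbol. Genes are therefore described in groups and 4 of them by identifier. The label "mature adipocyte" could not be checked against marker genes for the same reason. In such bulk RNA, fewer cells of a type and less RNA per cell cannot be told apart.

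The VAT libraries held 5872244 to 9414223 counts and the SAT libraries 4203986 to 7243006. The mean difference of 2159025 counts did not pass the exact two-sided permutation test after adjustment over 5 measures (p = 0.0317, adjusted p = 0.159, smallest possible p = 0.00794). Genes with at least 1 count numbered 37150 to 43239 in VAT and 36958 to 46175 in SAT (exact permutation, adjusted p = 0.476). At equal depth they numbered 32051 to 36664 and 32156 to 42310 (exact permutation, adjusted p = 0.446). The 100 most abundant genes took 21.2 to 28.4% of the counts in VAT and 22.6 to 31.5% in SAT (exact permutation, adjusted p = 0.446). Over all 10 libraries, 27642 genes had a count in each library. A floor of 3 counts covers counting error only. It lay between 0.319 and 0.714 CPM (counts scaled to a library total of 1000000) in VAT and SAT. In IMAT, with 2413951 to 4199494 counts per library, it lay between 0.714 and 1.24 CPM. IMAT replicate 2 had 46.2% of its counts in its 10 most abundant genes, the other IMAT libraries 11 to 21.5%. It gave the lowest IMAT CPM of each of the 4 genes described below, and CPM in the text is not corrected for such a share.

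VAT and SAT fell on opposite sides of principal component 1 of log2 CPM, and libraries of both depots were spread along component 2. Component 1 held 40.1% of the variance, with VAT scores from 51.6 to 102.7 and SAT scores from -91.6 to -36.5. Component 2 held 25.7% and set VAT replicate 5 (101.1), SAT replicate 5 (94.2) and SAT replicate 4 (44.8) apart from the other 7 libraries, which lay between -68.8 and -5.3. These 3 libraries came from both depots, so component 2 did not follow the depot. At equal depth, SAT replicates 4 and 5 had 42262 and 42310 detected genes and the other SAT libraries 32156 to 36389. VAT replicate 5 had 36010 and VAT replicate 2 had 36664, against 32051 to 32574 in the remaining VAT libraries.

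**Figure D1:**
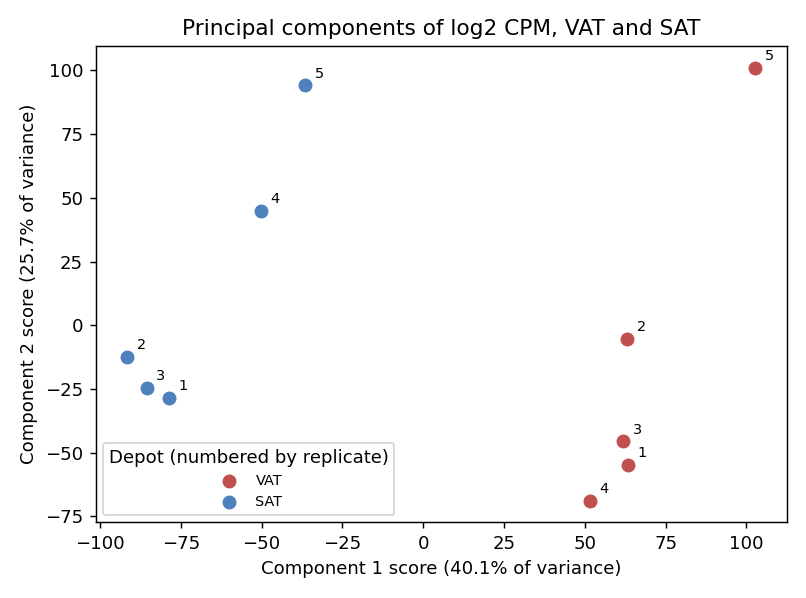
Scores of the 5 VAT and 5 SAT libraries on the first 2 principal components of log2 CPM over the genes tested, numbered by replicate. Component 1 (40.1% of variance) divides the depots, and component 2 (25.7%) sets VAT replicate 5 and SAT replicates 4 and 5 above the rest.

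VAT replicate 5 was the library least like the others of its depot. Of 20872 genes with a mean of at least 3 CPM, 30.5% lay more than 2-fold above or below the mean of the other 4 VAT libraries, 3048 above and 3308 below. The same share was 4.66 to 10.3% for the other VAT libraries. In SAT it was 17.8% for replicate 5 and 5.6 to 8.84% for the others. Across genes, log2 CPM of VAT replicate 5 correlated at a mean of 0.859 with the other VAT libraries and 0.786 with the SAT libraries, whereas the other VAT libraries had 0.919 to 0.931 and 0.853 to 0.86. Genes are not independent replicates, and these correlations only describe the libraries. VAT replicate 5 and SAT replicates 4 and 5 were also left out together. Counts of called genes in all, under 3 CPM, at 100 CPM and over, and over 32-fold are given both ways. Most other results are given only with these libraries.

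Most genes that differed between the depots were lower in VAT than in SAT. At an adjusted p of 0.05 (edgeR quasi-likelihood, Benjamini-Hochberg), 2090 of 25695 genes tested were called (8.13%), 609 higher in VAT (2.37%) and 1481 lower (5.76%). The median log2 fold change was 2.03 among the genes called higher, -2.37 among those called lower and 0.03 over all genes tested. The 5 libraries of each depot did not overlap for 389 of the 609 genes (63.9%) and for 1189 of the 1481 (80.3%). Over all genes tested, 8.67% had depots that did not overlap, 2.68% with VAT higher and 5.99% with VAT lower. Without VAT replicate 5 and SAT replicates 4 and 5, 745 genes were higher and 1422 lower. Of the 2090 genes, 1692 were among the 2167 called there (81% of the former and 78.1% of the latter). In a test whose null hypothesis was a change of at most 2-fold, 225 were higher and 671 lower. With DESeq2, 874 were higher and 2033 lower. A fit of the 10 VAT and SAT libraries alone called 661 higher and 1347 lower. The IMAT libraries entered the normalization, the shared estimate of the spread and the filter on low counts. The fit without them shared 1692 of the 2090 main calls (81%). Leaving out IMAT replicate 2 alone gave 747 higher and 1685 lower. Of the 1481 lower genes, 234 passed the filter only with the IMAT libraries, beside 7 higher genes under 3 CPM and 1 at 3 to 10 CPM. How far each step moved the counts was not tested.

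**Figure D2:**
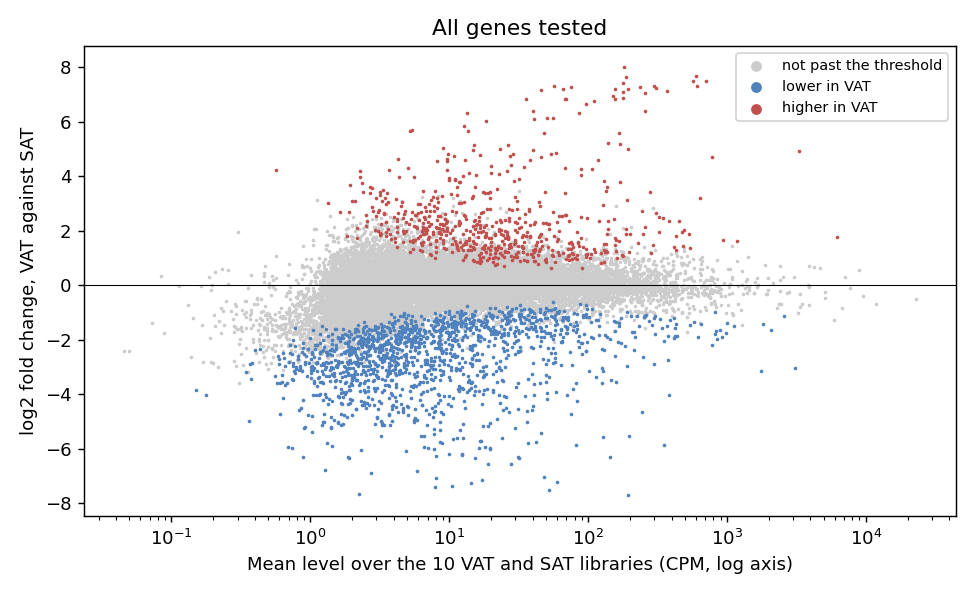
Log2 fold change of VAT against SAT for each of the 25695 genes tested, against the mean CPM over the 10 libraries on a log axis. The 609 genes higher in VAT (red) include a group near a log2 fold change of 7, and the 1481 lower (blue) extend to lower levels.

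Most calls among weakly expressed genes were lower in VAT, and the directions were about even among abundant ones. Of 4823 genes with a mean under 3 CPM over the 10 libraries, 25 were higher (0.518%) and 427 lower (8.85%). At 3 to 10 CPM, 155 of 7916 were higher (1.96%) and 476 lower (6.01%). At 10 to 30 CPM, 194 of 7295 were higher (2.66%) and 300 lower (4.11%). At 30 to 100 CPM, 146 of 4105 were higher (3.56%) and 188 lower (4.58%). At 100 CPM and over, 89 of 1556 were higher (5.72%) and 90 lower (5.78%). The share of calls that were higher in VAT thus went from 5.53% in the lowest class to 49.7% in the highest. Over all genes tested in a class, called or not, the median log2 fold change was -0.37 in the lowest class. It was 0.07, 0.1 and 0.07 in the classes between and -0.003 in the highest. The calls are counts over genes of 1 fit, and the difference between classes was not tested. CPM is not scaled by gene length, so a class groups genes by their counts and not by transcript number.

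The filter on low counts bore on the lowest class. Of the 4823 genes under 3 CPM, 1540 passed it only with the IMAT libraries, and these included 229 of the 427 genes lower in VAT and 7 of the 25 higher. Among the genes that passed it in the VAT and SAT libraries alone, 18 were higher and 198 lower under 3 CPM, and 154 were higher and 471 lower at 3 to 10 CPM. The 427 genes had a median of 0.363 CPM in VAT, 3.12 in SAT and 7.44 in IMAT. In a fit of the 10 VAT and SAT libraries alone, 35 genes of this class were higher and 221 lower. With all 15 libraries at equal depth, where fewer weak genes can be tested, 2 were higher and 153 lower. Without the 3 libraries that stood apart, 44 were higher and 297 lower. That fit had smaller groups and tested 26362 genes, and the cause of the change was not tested. Without VAT replicate 1, 15 were higher, and without IMAT replicate 2, 41. Among genes of 100 CPM and over, 57 were lower without SAT replicate 2 or without SAT replicate 3, in place of 90. Without the 3 libraries together 106 of these abundant genes were higher and 140 lower, and the test for a change beyond 2-fold found 45 higher and 28 lower. DESeq2 found 120 higher and 137 lower among them.

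**Figure D3:**
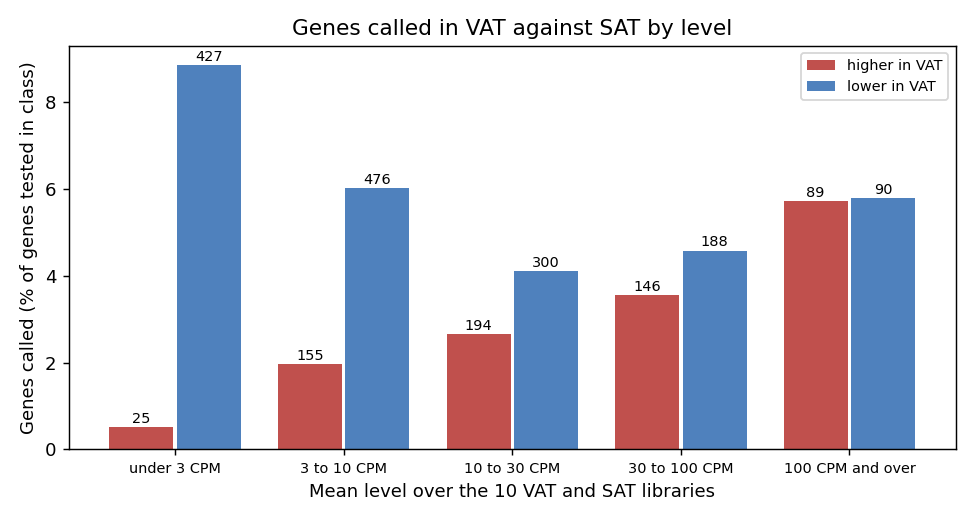
Share of genes tested that were called higher (red) or lower (blue) in VAT, in 5 classes of mean CPM over the 10 libraries, with the number of genes above each bar. Lower calls prevail under 3 CPM (25 against 427, of which 229 passed the filter only with the IMAT libraries) and the directions are even at 100 CPM and over (89 against 90).

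Fold changes of the called genes were large in both directions, which selection by a threshold favours. Over all genes tested, the quartiles of the log2 fold change were -0.355 and 0.349. Of the 609 genes higher in VAT, 38 differed under 2-fold, 261 differed 2- to 4-fold, 264 differed 4- to 32-fold and 46 over 32-fold, by the fitted value. Of the 1481 lower genes the numbers were 37, 517, 840 and 87. The smallest called change, as the size of the log2 fold change, was 1.35 under 3 CPM, 0.98 at 3 to 10 CPM, 0.702 at 10 to 30 CPM, 0.608 at 30 to 100 CPM and 0.826 at 100 CPM and over. The median genes differed in level, with 19.9 CPM for the genes higher in VAT and 6.25 CPM for those lower, beside 10.1 CPM for all genes tested. The lower genes include 234 that passed the filter only with the IMAT libraries, 229 of them under 3 CPM, which lowers their median level. Of the 840 and 87 lower genes, 202 and 17 were such genes.

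A complete absence was rarer than a large fold. No gene with 50 or more pooled counts in VAT was at 0 in all SAT libraries, and the highest pooled VAT count of a gene at 0 in SAT was 32. In the other direction 5 genes with 50 or more pooled SAT counts were at 0 in all VAT libraries, although VAT had more counts in all. Against a floor of 3 counts for the pooled VAT libraries, they were at least 23.3-fold to at least 61.2-fold lower in VAT. The gene with the most SAT counts among them had 12 to 43 in each SAT library and 134 in all. Of these 5 genes, 3 were called.

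The 4 genes described next had the largest differences in mean CPM in each direction, 2 higher and 2 lower, among called genes whose depots did not overlap. ENSOMYG00000047226 ranked 3 among all genes by counts in VAT and 31 in SAT. Its level was 11226, 8978, 10238, 13408 and 4308 CPM in VAT replicates 1 to 5, and 3237, 2931, 2912, 2988 and 1897 CPM in SAT replicates 1 to 5. The lowest VAT library, replicate 5, still lay above every SAT library, and replicate 5 was also the lowest in SAT. Its means were 9631 ± 3389 CPM in VAT and 2793 ± 518 in SAT (SD, n = 5), a log2 fold change of 1.75 (SE 0.392, adjusted p = 0.00682, edgeR). A change beyond 2-fold was not shown (edgeR, adjusted p = 0.172). IMAT had 324 to 1493 CPM, below both depots.

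ENSOMYG00000061122 ranked 8 by counts in VAT and 630 in SAT. It stood at 9030, 7429, 5430, 5386 and 4479 CPM in VAT replicates 1 to 5, and at 172, 178, 184.5, 155 and 367 CPM in SAT replicates 1 to 5. SAT replicate 5 was the highest of its depot and VAT replicate 5 the lowest of its own, yet they were far apart. The ratio of mean CPM was 30.1, from 6351 ± 1846 to 211.2 ± 87.9 CPM (SD, n = 5), and the log2 fold change was 4.92 (SE 0.491, adjusted p = 2.43e-06, edgeR). IMAT ranged from 18.3 to 182 CPM. The highest VAT library of this gene was replicate 1, not replicate 2 as for most genes with the largest folds.

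ENSOMYG00000030077, lower in VAT, ranked 10 by counts in SAT and 140 in VAT. VAT replicates 1 to 5 had 668, 759, 730.4, 742 and 558 CPM, and SAT replicates 1 to 5 had 5505, 5647, 6781, 5517 and 4289 CPM. No library came near the other depot. The mean was 691 ± 82.1 CPM in VAT and 5548 ± 883 in SAT (SD, n = 5), which is 8.02-fold higher in SAT, with a log2 fold change of -3.06 (SE 0.297, adjusted p = 1.66e-06, edgeR). The IMAT libraries had 2591 to 5222 CPM, overlapping with SAT.

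ENSOMYG00000002650 ranked 22 by counts in SAT and 317 in VAT. It had 669, 286, 424, 415 and 63.4 CPM in VAT replicates 1 to 5 and 5460, 2980, 3377, 2756 and 1325 CPM in SAT replicates 1 to 5. Replicate 5 was the lowest library in each depot and replicate 1 the highest, and the depots did not overlap. Means were 371 ± 221 CPM in VAT and 3179.7 ± 1492 in SAT (SD, n = 5), with a log2 fold change of -3.16 (SE 0.578, adjusted p = 0.0013, edgeR). IMAT had 526 to 3031 CPM.

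**Figure D4:**
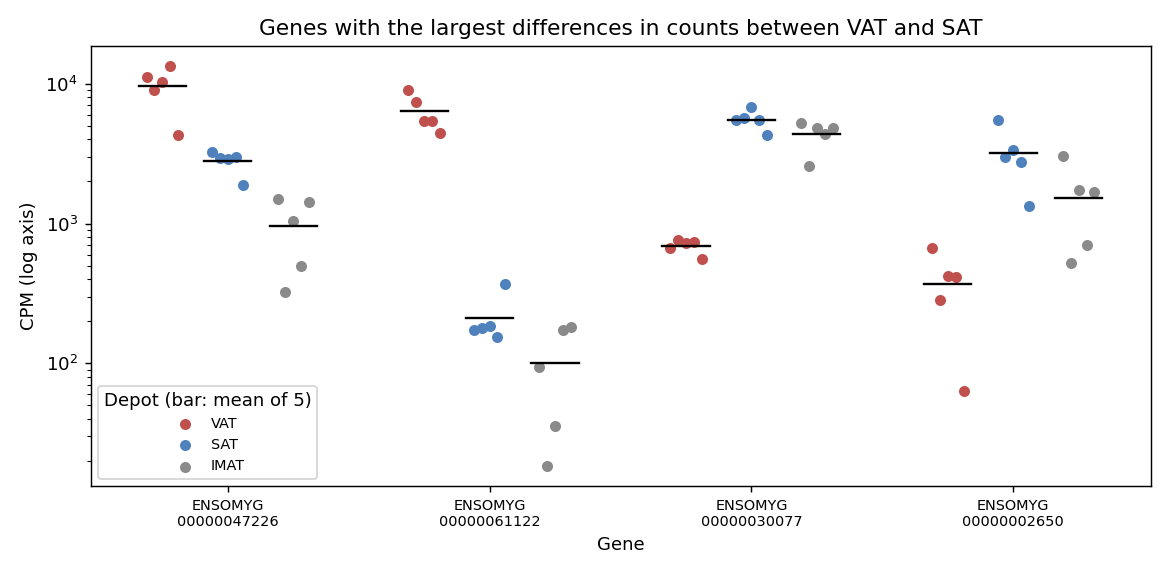
CPM on a log axis in each library for the 4 genes with the largest differences in mean CPM, with VAT in red, SAT in blue, IMAT in grey and a bar at the mean of 5 libraries. VAT lies above SAT for ENSOMYG00000047226 and ENSOMYG00000061122 and below it for ENSOMYG00000030077 and ENSOMYG00000002650. VAT and SAT do not overlap, which the choice of these genes required.

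A few genes carried much of the difference in counts. The top 2 genes held 21.6% of the summed CPM difference of all genes called higher in VAT, the top 10 held 37.5%, and 24 genes held 50%. For the genes lower in VAT, the top 2 held 11.9%, the top 10 held 28.3% and 37 genes held 50%. The most abundant genes were largely shared by the depots, 70 of the 100 with the most counts and 803 of the 1000. Of the 100 genes with the most counts in VAT, 11 were called higher there, and of the 100 with the most in SAT, 17 were called lower in VAT. Over all genes tested, 2.37% were called higher and 5.76% lower, and over those of 100 CPM and over, 5.72% and 5.78%. Each list was ranked on the depot in which the call is higher, which favours such calls.

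The genes called higher in VAT together took 5.01 to 9.89% of the counts of each VAT library and 1.44 to 1.62% of each SAT library. The genes called lower took 1.97 to 2.85% in VAT and 7.14 to 10.4% in SAT. Both sets were chosen on these libraries, so the shares are descriptions only. In IMAT the genes higher in VAT took 0.762 to 1.81% of counts. The genes lower in VAT together took 15.6 to 26.4%, more than in any SAT library, but this did not hold in every fold class. The shares of 0.762% and 26.4% were both those of IMAT replicate 2. Of the 1481 genes, 234 passed the filter on low counts only with the IMAT libraries. They needed IMAT counts to pass, which favours a high share in IMAT. The other 1247 took 15.1 to 25.6% of counts in IMAT, 7.06 to 10.4% in SAT and 1.96 to 2.85% in VAT. Of the 840 genes 4- to 32-fold lower in VAT, 202 were among those 234. The other 638 took 2.98% ± 0.425 of SAT counts and 15.5% ± 4.38 of IMAT counts (SD, n = 5). Of the 87 genes over 32-fold lower, 17 were among them. The other 70 took 0.405% ± 0.0623 of SAT counts and 0.852% ± 0.243 of IMAT counts (SD, n = 5).

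The 46 genes over 32-fold higher in VAT varied together between the VAT libraries. They took 1.42, 3.59, 1.12, 0.826 and 0.29% of the counts in VAT replicates 1 to 5, and 0.0127, 0.00764, 0.00685, 0.014 and 0.0212% in SAT replicates 1 to 5. VAT replicate 2 was the highest VAT library for 41 of the 46 genes, beside 16.2% of all genes tested, and replicate 5 was the lowest for 45, beside 32.6%. The ratio of the highest to the lowest VAT library had a median of 11.6 over the 46 genes. The SD of log2 CPM between VAT libraries had a median of 1.32 for these genes, 0.736 for all genes higher in VAT and 0.468 for all genes tested. Between SAT libraries the median SD of the 46 genes was 0.708, beside 0.459 for all genes tested.

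The log2 fold changes of these 46 genes ran from 5.02 to 7.99 with quartiles of 6.05 and 7.22, and 35 lay between 6 and 8. A mean of at least 10 CPM over the 10 libraries was found for 43 of them and of at least 100 CPM for 23. Their median levels were 205 CPM in VAT, 1.98 CPM in SAT and 0.422 CPM in IMAT. All 46 had depots that did not overlap, a condition that their selection by fold favours. Without VAT replicate 5 and SAT replicates 4 and 5, 79 genes exceeded 32-fold in this direction. Without 1 VAT or SAT library at a time the number ran from 42 to 59. Whether RNA of another cell type moved with these genes was not tested.

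The 87 genes over 32-fold lower in VAT varied less in their summed share of the SAT counts. They took 0.461, 0.431, 0.447, 0.409 and 0.304% of counts in SAT replicates 1 to 5, and 0.00431, 0.00625, 0.00671, 0.00764 and 0.00884% in VAT replicates 1 to 5. The median SD of log2 CPM was 0.783 between SAT libraries, with SAT replicate 4 lowest for 46 of the 87 genes (52.9%) and replicate 5 for 28 (32.2%), beside 19.5% and 26.9% of all genes tested, and 0.407 between VAT libraries, where counts were near 0. Their log2 fold changes ran from -7.70 to -5.01, and 30 had a size between 6 and 8. No VAT library had a count for 5 of the 87, and the fitted value of such genes depends on the prior count. With a floor of 3 pooled VAT counts in its place, 84 genes still exceeded 32-fold, and the median went from -5.76 to -5.65. Levels were lower than in the group above, with a median of 16.7 CPM in SAT, 0.31 CPM in VAT and 22.8 CPM in IMAT, and with 48 genes under 10 CPM over the 10 libraries. The same genes, 17 of which passed the filter only with the IMAT libraries, took 0.601 to 1.31% of counts in IMAT. The highest of these shares was that of IMAT replicate 2. Without the 3 libraries that stood apart, 124 genes exceeded 32-fold in this direction.

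**Figure D5:**
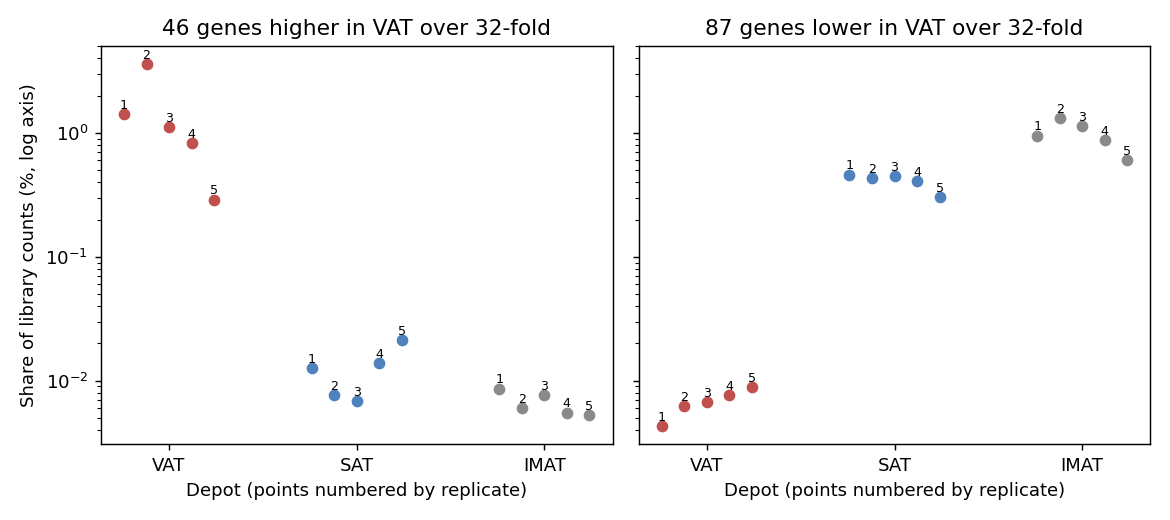
Share of each library's counts, on a log axis, taken by the 46 genes over 32-fold higher in VAT (left) and the 87 over 32-fold lower (right), for the libraries of VAT, SAT and IMAT numbered by replicate. The left group spans 0.29 to 3.59% between VAT libraries, and the right group 0.304 to 0.461% between SAT libraries.

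VAT replicate 5 stood nearer to SAT than the other VAT libraries for genes higher in VAT. It was the lowest VAT library for 391 of the 609 genes (64.2%), beside 32.6% of all genes tested, and lay 0.51 below the VAT mean on the log2 scale on average, while the other 4 libraries lay 0.02 to 0.21 above it. For the 1481 genes lower in VAT the corresponding averages lay between -0.17 for replicate 5 and 0.18 for replicate 2. Averaged over those genes, replicate 5 thus lay farthest from SAT among the VAT libraries, but this did not hold in every fold class. Its average was -0.28 for the 37 genes under 2-fold lower and -0.42 for the 517 genes 2- to 4-fold lower. It was -0.04 for the 840 genes 4- to 32-fold lower and 0.13 for the 87 over 32-fold lower. Replicate 1 lay lowest for the 840 and the 87 genes, at -0.14 and -0.24. In SAT, replicates 4 and 5 each lay 0.19 below the mean for those 1481 genes, that is toward VAT. Their deviations in the 609 genes were 0.07 and 0.14, beside 0.06 for each over all genes tested. That of SAT replicate 4 was thus near the value of all genes. Leaving out VAT replicate 5 gave 706 higher and 1538 lower genes.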

How the data were processed

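The values were raw counts per gene in a table deposited by the authors that covers 15 libraries and 64494 genes. According to the submitters' processing notes, Trimmomatic 0.30, STAR 2.5.2b, featureCounts (Subread 1.5.2) and DESeq2 1.6.3 were used. The sources used here do not give the genome build, annotation, strand setting or multi-mapping rules. Counts of genes with near-identical copies, common in salmonids, or of overlapping genes are uncertain. Per the labels, libraries were depleted of ribosomal RNA.

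Depots were compared in edgeR 4.0.16 (R 4.3.3) by quasi-likelihood F-tests with Benjamini-Hochberg adjustment over all genes tested, TMM normalization, robust dispersions and depot as the only term, in 1 fit of all 15 libraries. filterByExpr (minimum count 10, minimum total 15) kept 25695 genes with 99.0% of counts. The SE is the size of the log2 fold change divided by the square root of F, a rough guide. CPM in the text is the count scaled to a library total of 1000000. Log2 CPM used a prior count of 2. Equal depth means random thinning to 2413951 counts. Single measures were tested by exact permutation, 252 arrangements, adjusted over 5 tests. No pair of libraries within a depot agreed within counting noise (chi-square per degree of freedom at least 6.37 over 20 pairs). The labels give no batch.

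The named genes were, per direction, the 2 with the largest difference in mean CPM among called genes with at least 10 CPM in the higher depot and no overlap. The 24 gene lists drawn up for cell types and functions could not be matched to identifiers, as the reference table held 0 Ensembl identifiers. The comparison, lists and alternatives were chosen with earlier results of these data known. Alternatives were other normalizations, filters, tests (DESeq2 1.42.0, limma-voom 3.58.1), depths, sets of libraries and the replicate number as a block.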

Additional observations from a re-analysis of the deposited data

Results flagged for a closer look

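Of 22 groups of 5 libraries examined (library measures, levels of the 4 genes and shares of the genes over 32-fold), 2 had a single library set off from its neighbour by more than 0.71 of the range of the group, where chance gives about 1.1. Both were SAT replicate 5. Its level of ENSOMYG00000047226 was 1897 CPM, below the 2912 to 3237 CPM of the other SAT libraries. Its level of ENSOMYG00000061122 was 367 CPM, above the 155 to 184 CPM of the others. SAT replicate 5 also had the fewest counts of the 10 libraries, 4203986.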

How the results depend on the processing

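The count of 2090 genes was between 1586 and 2907 under the other normalizations, tests, filters, depths and sets of libraries run, apart from the test for a change beyond 2-fold, which called 896 (225 higher and 671 lower). Leaving out 1 VAT or SAT library gave 1589 to 2244 genes, with 439 to 706 higher and 1150 to 1538 lower. More genes were lower than higher in VAT under every alternative run, with 25.1 to 37.5% of calls higher. Whether equal replicate numbers mark the same fish is not given by the labels, and correlations between libraries cannot settle it. Same-numbered VAT and SAT libraries deviated together with correlations of 0.26, 0.03, 0.13, -0.13 and 0.53 for numbers 1 to 5. VAT replicates 1 and 5 correlated best with their own number, replicates 2, 3 and 4 with another. With the replicate number as a block, 2460 genes were called in the fit of 15 libraries and 2881 in the fit of 10 (2008 without it), where 1080 were higher and 1801 lower; the cause was not tested. The paired sign-flip test of library measures cannot give a p under 0.0625 with 5 pairs, so it could not pass (exact, adjusted p = 0.312 for total counts, 0.75 for detected genes and 0.312 for the top 10 genes). The 4 named genes kept their direction throughout and passed every test but that of ENSOMYG00000047226 for a change beyond 2-fold. Calls under 3 CPM, 25 higher and 427 lower, were 61 and 662 with DESeq2, 55 and 438 without the filter, 43 and 387 with a mean of at least 1 CPM, and 6 and 83 in a fit of the 10 libraries thinned to 4203986 counts; the cause was not tested.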
